A study of Mus musculus with 12 samples.

Results

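Skeletal muscle genes were described here as a set of 36, out of 35944 genes measured by RNA-seq in 12 mouse 4T1 tumours, and all 36 listed genes were found. They were chosen by their values in these same libraries, because as a set they peaked in 1 tumour, miR-183-5p tumour 3, so that their height in that tumour is a description and not a finding. Skeletal muscle runs on a small set of abundant proteins. Myosin thick filaments pull on actin thin filaments, troponin and tropomyosin make that pull depend on calcium, titin and the Z-disc hold the lattice in register, and the sarcoplasmic reticulum releases and recovers the calcium. Fast fibres and slow fibres use different genes for the same part, so that the isoforms present show which fibre class an RNA sample resembles.

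All mice were female BALB/c animals aged 6 to 8 weeks with 100000 cells of 4T1, a mouse mammary carcinoma line, placed under the skin of the right flank. From day 5 they received 3 µg of extracellular vesicles (EVs) beside the tumour every 2 days, and tumours were taken on day 21. The EVs came from the mouse endothelial line MS-1 and carried cel-miR-67, a worm miRNA used as the control (ctrl-EVs), or else miR-142-5p, or miR-183-5p, or finally miR-222-3p, with 3 tumours in each of the 4 groups. The labels name no altered allele, and number the tumours without saying that each came from its own mouse, so that p-values measure the spread between these tumours.

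Each library held 20152501 to 26850091 estimated reads assigned to genes. The tumour epithelial keratins were abundant throughout, Krt8 at 481 to 732 TPM and Krt18 at 632 to 1046 TPM over the 11 tumours other than miR-183-5p tumour 3, and at 522 and 768 TPM in that tumour. TPM is the share of a library's transcripts after correction for transcript length, and levels are compared between genes on that scale. The libraries are bulk tumour RNA, so that more cells of a type and more RNA per cell cannot be told apart.

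In miR-183-5p tumour 3 the 36 genes summed to 976 TPM, against 174 to 224 TPM in the other 11 tumours. Most of the level in those 11 came from Tnni2 and Eno3, and without both the sums were 717 TPM in miR-183-5p tumour 3 and 39.8 to 67.9 TPM elsewhere. As a share of reads the members took 0.0972% of miR-183-5p tumour 3 (95% Wilson interval 0.0959 to 0.0984%, counting error only) and 0.0107 to 0.0142% of the others. Of the 36 members, 32 had their highest TPM in that tumour, beside 8.32% of the 15485 genes that reached 10 reads in 3 or more of the 12 libraries. The median ratio of that tumour to the median of the other 11 was 19.2 over the members, taking what 3 reads amount to in that tumour as the least denominator. The member closest to the border on the inside was Eno3, at 1.11 times the next tumour, and the closest on the outside was Actn2, at 0.706 times the highest tumour.

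**Figure D1:**
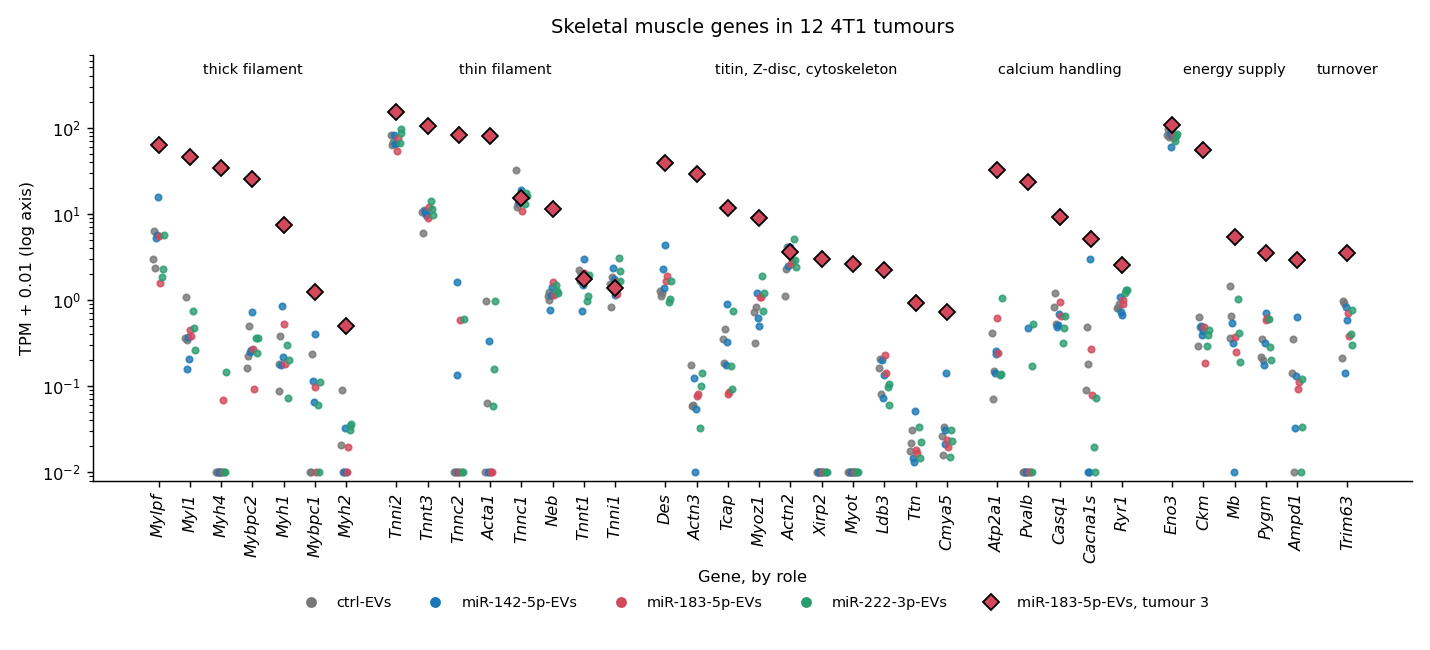
TPM of the 36 members in each tumour, plotted as TPM + 0.01 on a log axis with genes grouped by role and ordered by their level in miR-183-5p tumour 3. Circles are the other 11 tumours coloured by group and the diamond is miR-183-5p tumour 3; Myh4 sits at 33.8 TPM there and at 0 to 0.137 TPM elsewhere, whereas the diamonds of Tnnc1, Tnnt1, Tnni1 and Actn2 lie among the circles.

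The fast genes of the thick filament peaked in that tumour. Myh4, the heavy chain of the fastest (IIb) fibres, on chromosome 11 from 67238029 to 67260446 (GRCm38), was listed at 0 TPM in all 3 ctrl-EV tumours, all 3 miR-142-5p-EV tumours, miR-183-5p tumour 1 and miR-222-3p tumours 1 and 2, at 0.0584 TPM in miR-183-5p tumour 2, at 0.137 TPM in miR-222-3p tumour 3 and at 33.8 TPM in miR-183-5p tumour 3. In reads this was 3295 in miR-183-5p tumour 3, 16 in miR-222-3p tumour 3 and 6 in miR-183-5p tumour 2. Only these 3 of the 12 libraries held any Myh4 read, and a count of 0 allows up to 3 reads, which is 0.112 to 0.149 RPM, the depth-scaled read count, at these depths.

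Myh1, the fast IIx heavy chain encoded beside Myh4 (chromosome 11, 67200052 to 67224575), was at 0.0783, 0.172 and 0.371 TPM in the ctrl-EV tumours, 0.167, 0.85 and 0.207 TPM in the miR-142-5p-EV tumours, 0.291, 0.0624 and 0.188 TPM in the miR-222-3p-EV tumours, and 0.518, 0.17 and 7.38 TPM in the miR-183-5p-EV tumours. Myh2, the IIa heavy chain from the same cluster (67171027 to 67197517), was at 0.0109, 0.081 and 0 TPM with ctrl-EVs, 0, 0.0228 and 0 TPM with miR-142-5p-EVs, 0.0248, 0.0208 and 0.0265 TPM with miR-222-3p-EVs and 0, 0.00956 and 0.486 TPM with miR-183-5p-EVs. Within the adult heavy chains of miR-183-5p tumour 3, Myh4 made up 81.1% of the TPM, Myh1 17.7% and Myh2 1.17%, whereas Myh7, the slow heavy chain, was listed at 0. These shares are Salmon's split of similar sequences: 37.9% of the 31-base words in Myh1 transcripts, 32.8% of those in Myh2 and 30.4% of those in Myh4 also occur in transcripts of another gene.

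The window from 250 bases before to 50 bases after a transcription start is shown for Myh4 and Acta1, a fast-fibre gene and the actin of all skeletal fibres that were both near 0 outside miR-183-5p tumour 3, and for Tnnc1, a slow-fibre gene that was not raised there (RefSeq sequences, GRCm38.p6, gene strand). Capitals mark CAGCTG, an E-box of the type bound by myogenic factors, and matches to the MEF2 and CArG consensus motifs, which were searched on both strands and read the same on each.
Myh4 (chr11:67237562-67237861, plus strand): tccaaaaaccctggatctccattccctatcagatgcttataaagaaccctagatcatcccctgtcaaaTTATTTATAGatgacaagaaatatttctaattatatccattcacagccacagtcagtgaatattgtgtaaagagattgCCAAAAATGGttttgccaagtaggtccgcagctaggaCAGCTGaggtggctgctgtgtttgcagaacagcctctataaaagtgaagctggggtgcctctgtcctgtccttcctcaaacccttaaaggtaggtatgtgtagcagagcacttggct
Acta1 (chr8:123894726-123895025, minus strand): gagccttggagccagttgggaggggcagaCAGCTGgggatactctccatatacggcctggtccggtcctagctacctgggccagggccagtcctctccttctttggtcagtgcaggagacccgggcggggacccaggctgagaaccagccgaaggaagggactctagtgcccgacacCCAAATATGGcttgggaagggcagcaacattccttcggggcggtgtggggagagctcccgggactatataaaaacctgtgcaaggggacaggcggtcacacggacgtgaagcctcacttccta
Tnnc1 (chr14:31208062-31208361, plus strand): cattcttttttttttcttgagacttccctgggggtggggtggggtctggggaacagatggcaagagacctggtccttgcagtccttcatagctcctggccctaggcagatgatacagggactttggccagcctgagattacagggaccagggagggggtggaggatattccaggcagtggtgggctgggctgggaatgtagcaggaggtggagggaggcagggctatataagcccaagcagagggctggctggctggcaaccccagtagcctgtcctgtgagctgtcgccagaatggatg
Myh4 held 1 match to each of the 3 motifs, Acta1 held 1 CAGCTG and 1 CArG match, and the Tnnc1 window held none of these letters. Windows were found for 28 of the 36 members, and CAGCTG occurred in 15 of the 28 (53.6%), beside 18.3% of all 27025 genes with a window. A MEF2 match occurred in 5 members (17.9%, beside 3.70% of genes) and a CArG match in 3 (10.7%, beside 1.81%), and a match is a description of letters, not of binding. Tnni1, which did not peak with the set, also held CAGCTG.

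The fast light chains peaked in the same tumour. Mylpf, the fast regulatory light chain, was at 2.95, 6.36 and 2.32 TPM with ctrl-EVs, 5.27, 5.69 and 15.5 TPM with miR-142-5p-EVs, 1.83, 2.27 and 5.72 TPM with miR-222-3p-EVs and 5.45, 1.58 and 62.9 TPM with miR-183-5p-EVs. Myl1, the fast essential light chain, was at 0.354, 1.08 and 0.329 TPM with ctrl-EVs, 0.149, 0.362 and 0.197 TPM with miR-142-5p-EVs, 0.73, 0.467 and 0.25 TPM with miR-222-3p-EVs and 0.435, 0.371 and 46.2 TPM with miR-183-5p-EVs. Mylpf therefore had a second, lower high value in miR-142-5p tumour 3, and Myl1 did not. Mybpc2, the fast myosin-binding protein, was at 25.4 TPM in miR-183-5p tumour 3 and 0.0816 to 0.712 TPM in the others, and its slow counterpart Mybpc1 was at 1.21 TPM and 0 to 0.397 TPM. For Myl1, 14.5% of the 31-base words are shared, mostly with the processed copy Mylf-ps.

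The thin filament split by isoform. Acta1, skeletal muscle actin (chromosome 8, 123891769 to 123894751), was at 79.9 TPM in miR-183-5p tumour 3 and 0 to 0.965 TPM in the others, and Tnnc2, the fast calcium-binding troponin C, was at 81.6 TPM there and 0 to 1.62 TPM elsewhere, where no library held more than 6 of its reads. Tnni2, fast troponin I, was already present in every tumour, at 82.3, 63.7 and 67.2 TPM with ctrl-EVs, 81.5, 64.7 and 66.3 TPM with miR-142-5p-EVs, 66.5, 97.5 and 87.4 TPM with miR-222-3p-EVs and 53.1, 76.3 and 153 TPM with miR-183-5p-EVs. Tnnt3, fast troponin T, which lies near Tnni2 on chromosome 7 (142498836 to 142516009 and 142441808 to 142444410), was at 10.4, 5.93 and 10.9 TPM with ctrl-EVs, 10.7, 9.64 and 9.77 TPM with miR-142-5p-EVs, 14.1, 11.4 and 9.68 TPM with miR-222-3p-EVs and 8.82, 11.8 and 104 TPM with miR-183-5p-EVs. The ratios to the next tumour were thus far apart, 1.57 for Tnni2 and 7.40 for Tnnt3, but the levels above the median of the other 11 tumours were close together, 81.6 TPM for Tnnc2, 94.0 TPM for Tnnt3 and 85.9 TPM for Tnni2, with Acta1 at 79.9 TPM. Neb, the thin-filament ruler nebulin, was at 11.5 TPM there and 0.749 to 1.59 TPM in the others.

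The 3 slow troponins did not share the peak. Tnnc1, the slow and cardiac troponin C, was at 32.0, 12.1 and 13.1 TPM with ctrl-EVs, 13.7, 16.7 and 18.7 TPM with miR-142-5p-EVs, 12.9, 17.5 and 16.2 TPM with miR-222-3p-EVs and 10.7, 15.5 and 15.2 TPM with miR-183-5p-EVs, with its highest value in ctrl tumour 1. Tnnt1, slow troponin T, was at 2.24, 1.67 and 1.99 TPM with ctrl-EVs, 0.729, 1.48 and 2.95 TPM with miR-142-5p-EVs, 0.958, 1.09 and 1.92 TPM with miR-222-3p-EVs and 2.06, 1.72 and 1.74 TPM with miR-183-5p-EVs. Tnni1, slow troponin I, was at 1.52, 0.814 and 1.81 TPM with ctrl-EVs, 2.35, 1.76 and 1.14 TPM with miR-142-5p-EVs, 3.09, 2.18 and 1.63 TPM with miR-222-3p-EVs and 1.59, 1.17 and 1.36 TPM with miR-183-5p-EVs. For all 3 the groups overlapped and miR-183-5p tumour 3 lay inside the range of the others. Tnnc2 made up 84.3% of troponin C TPM in miR-183-5p tumour 3 and 0 to 8.85% in the other tumours.

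**Figure D2:**
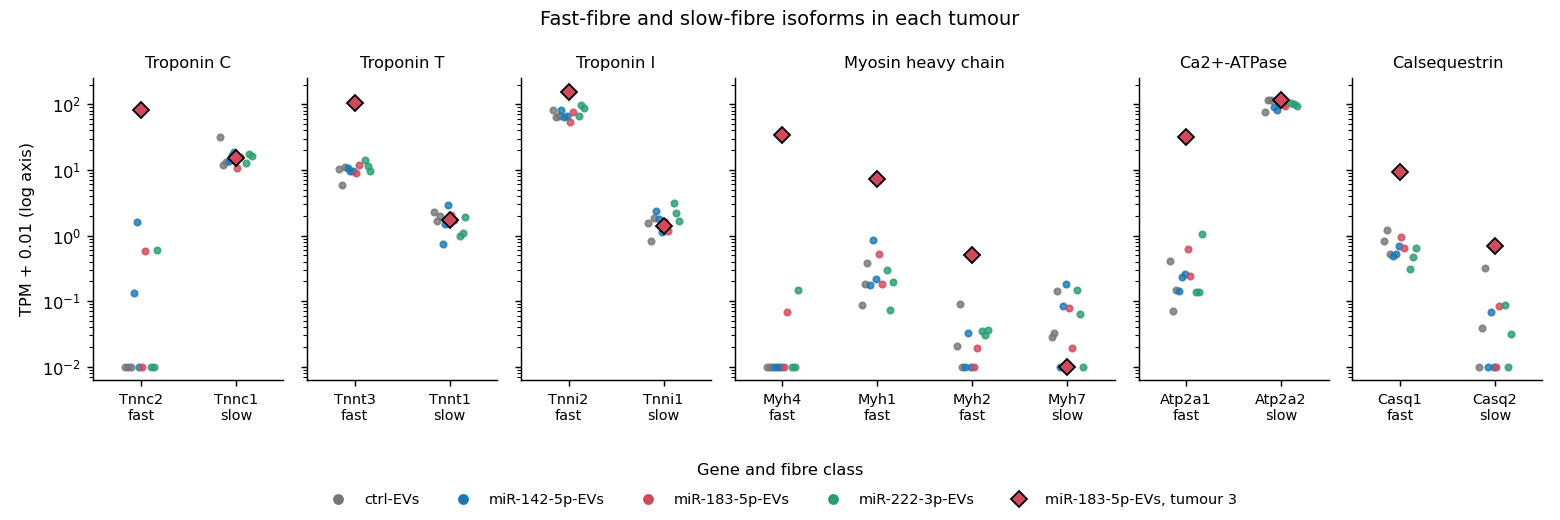
TPM + 0.01 (log axis) of fast-fibre and slow-fibre isoforms of 6 parts of the contractile and calcium machinery, with circles for 11 tumours coloured by group and a diamond for miR-183-5p tumour 3. The diamonds of the fast isoforms lie above all circles, and among the slow isoforms only that of Casq2 does, at 0.673 TPM.

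Over the whole list of fast isoforms, 11 of 11 genes were highest in miR-183-5p tumour 3. All 11 are members, chosen as a set for their peak there, so that this count is a description and is no support for a fibre class. Of the 9 slow isoforms, of which 4 are members, 2 were highest there, Mybpc1 and Casq2 (0.673 TPM, 0 to 0.315 TPM elsewhere). The slow genes Myh7, Myl2 and Myl3 were listed at 0 in that tumour and at 0 to 0.175, 0 to 1.12 and 0 to 0.385 TPM in the others. Atp2a2, the calcium pump of slow fibres and of many other cells, was at 115 TPM against 76.2 to 118 TPM.

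Of the 10 genes of the titin, Z-disc and cytoskeleton group, 9 had their highest TPM in miR-183-5p tumour 3. Des, the muscle intermediate filament desmin (chromosome 1, 75360329 to 75368579), was at 1.27, 1.09 and 1.19 TPM with ctrl-EVs, 2.27, 1.37 and 4.30 TPM with miR-142-5p-EVs, 0.925, 1.01 and 1.66 TPM with miR-222-3p-EVs and 1.65, 1.90 and 38.4 TPM with miR-183-5p-EVs. Actn3, the alpha-actinin of fast fibres, was at 28.8 TPM in miR-183-5p tumour 3 and 0 to 0.165 TPM in the others. Ttn, the giant spring titin, was low on the length-corrected scale, at 0.00786, 0.0119 and 0.0205 TPM with ctrl-EVs, 0.00456, 0.00325 and 0.0414 TPM with miR-142-5p-EVs, 0.0235, 0.00444 and 0.0122 TPM with miR-222-3p-EVs and 0.00825, 0.00681 and 0.910 TPM with miR-183-5p-EVs, the last from 1006 reads. Myot, which cross-links actin at the Z-disc, and Xirp2, an actin-binding protein of muscle, held no read in any of the other 11 tumours and 85 and 582 reads in miR-183-5p tumour 3. Tcap, Myoz1, Ldb3 and Cmya5 were at 11.7, 8.99, 2.24 and 0.706 TPM there, and none exceeded 1.90 TPM in the other tumours.

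Actn2, the alpha-actinin found in all striated fibres, was the exception by gene sum, at 1.10, 2.29 and 4.08 TPM with ctrl-EVs, 2.45, 4.10 and 4.10 TPM with miR-142-5p-EVs, 5.13, 2.92 and 2.39 TPM with miR-222-3p-EVs and 2.59, 2.78 and 3.62 TPM with miR-183-5p-EVs. Its single transcripts differed from the gene sum. The 3013-base coding transcript of Actn2 was at 3.62 TPM in miR-183-5p tumour 3 and 0 to 0.0776 TPM in the others, whereas the 1361-base retained-intron transcript Actn2-202 was listed at 0 there and was at 1.03 to 4.53 TPM in the others.

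Ryr1, the calcium release channel, was at 2.50 TPM in miR-183-5p tumour 3 and 0.658 to 1.31 TPM in the others, but its 15358-base coding transcript Ryr1-202 was at 1.92 TPM there and at most 0.0242 TPM elsewhere, and the 698-base retained-intron transcript Ryr1-205 was at 0.209 TPM there and 0.239 to 1.004 TPM elsewhere. Cacna1s, the voltage sensor of the fibre membrane, was at 5.06 TPM in miR-183-5p tumour 3, at 2.98 TPM in miR-142-5p tumour 3 and at 0.469 TPM or less in the other 10 tumours. In miR-142-5p tumour 3 the level came from Cacna1s-203, a 1001-base transcript without a coding annotation (2.94 TPM, and 3.31 TPM in miR-183-5p tumour 3), and the 6104-base coding transcript Cacna1s-204 was listed at 0 in all tumours but miR-183-5p tumour 3 (1.23 TPM). Mylpf was alike: of its 15.5 TPM in miR-142-5p tumour 3, the retained-intron transcripts Mylpf-203 and Mylpf-204, 285 and 165 bases long, held 3.49 and 6.96 TPM, and the 766-base coding transcript Mylpf-201 held 2.62 TPM, against 59.6 TPM in miR-183-5p tumour 3. In other members a transcript without a coding annotation held part of the peak itself, as Actn3-202 did. In miR-183-5p tumour 3, Ckm-202 held 25.5 of 55.5 TPM and Neb-208 held 6.66 of 11.5 TPM. With coding transcripts alone, 33 of the 36 members were highest in miR-183-5p tumour 3, and the other 3 were the slow troponins.

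**Figure D3:**
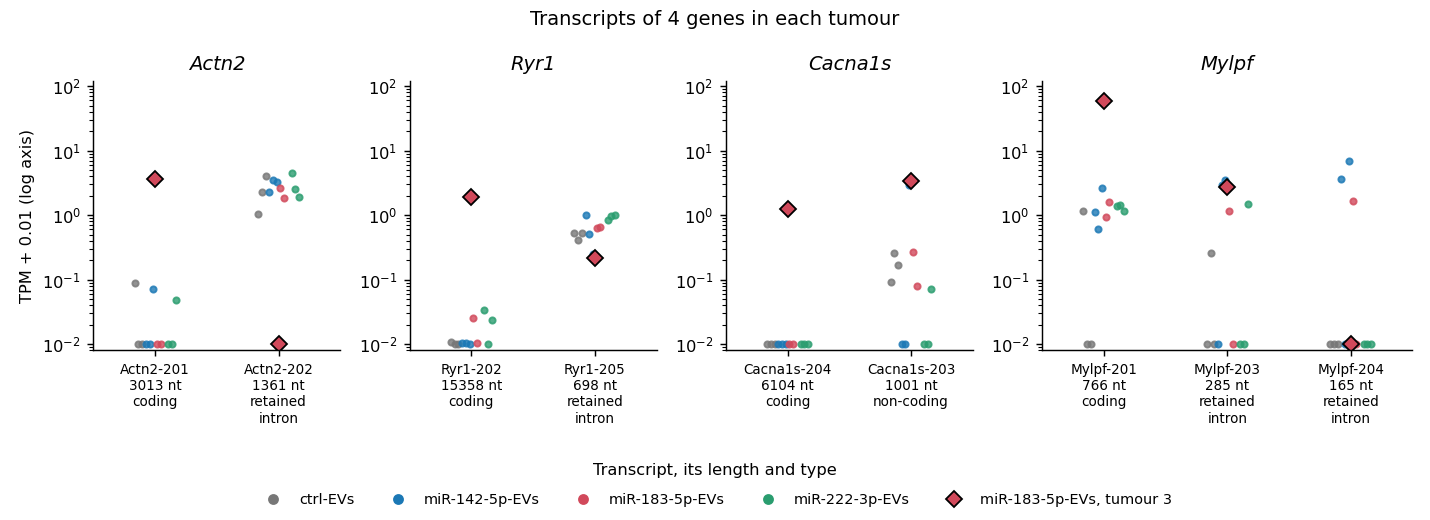
TPM + 0.01 (log axis) of single transcripts of Actn2, Ryr1, Cacna1s and Mylpf, named with their length in bases and their annotated type, in 11 tumours (circles, coloured by group) and miR-183-5p tumour 3 (diamond). The diamond is alone at the top for each longest coding transcript, and for Actn2-202, Ryr1-205 and Mylpf-204 it is at or below the lowest circle.

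Atp2a1, the fast calcium pump of the sarcoplasmic reticulum, was at 0.403, 0.0602 and 0.140 TPM with ctrl-EVs, 0.130, 0.223 and 0.247 TPM with miR-142-5p-EVs, 0.126, 0.127 and 1.05 TPM with miR-222-3p-EVs and 0.611, 0.233 and 32.1 TPM with miR-183-5p-EVs. Pvalb, the calcium buffer parvalbumin of fast fibres, was listed at 0 TPM in all ctrl-EV tumours, at 0, 0 and 0.458 TPM with miR-142-5p-EVs, 0, 0.162 and 0.517 TPM with miR-222-3p-EVs and 0, 0 and 23.4 TPM with miR-183-5p-EVs. Casq1, which stores calcium inside the reticulum, was at 9.16 TPM in miR-183-5p tumour 3 and 0.304 to 1.18 TPM in the others, and its retained-intron transcript Casq1-202 peaked there too, at 3.40 TPM against at most 0.816 TPM. Of the other 11 tumours, miR-222-3p tumour 3 was the highest for 5 of the 36 members, Myh4, Acta1, Ryr1, Atp2a1 and Pvalb, with 16 reads of Myh4, 24 of Acta1, 23 of Atp2a1 and 8 of Pvalb. Over the members that passed the count filter this was 2 of 20 (10%), Ryr1 and Atp2a1, beside 7.5% of all genes that passed it. The filter removed Myh4, Acta1 and Pvalb, so that this share does not cover them. Of other fast genes, Tnnc2 (5.79) and Actn3 (7) had their most reads of the 11 there, not scaled by depth. By TPM they were highest of the 11 elsewhere. Tnnc2 was at 1.62 TPM in miR-142-5p tumour 2 and 0.583 TPM in miR-222-3p tumour 3. Actn3 was at 0.165 TPM in ctrl tumour 1 and 0.130 TPM in miR-222-3p tumour 3. Myl1 (0.250 TPM) and Tnnt3 (9.68 TPM) lay below the median of the 11 there.

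In the energy group, Ckm, the muscle creatine kinase, was at 0.278, 0.621 and 0.477 TPM with ctrl-EVs, 0.482, 0.385 and 0.420 TPM with miR-142-5p-EVs, 0.282, 0.381 and 0.436 TPM with miR-222-3p-EVs and 0.470, 0.175 and 55.5 TPM with miR-183-5p-EVs. Eno3, the muscle enolase of glycolysis, was abundant in every tumour, at 82.2, 95.8 and 77.2 TPM with ctrl-EVs, 87.7, 59.2 and 80.8 TPM with miR-142-5p-EVs, 69.9, 80.7 and 84.4 TPM with miR-222-3p-EVs and 83.7, 76.4 and 106 TPM with miR-183-5p-EVs. The peak of Eno3 was thus small beside its level elsewhere, and that of Ckm was not. Pygm, muscle glycogen phosphorylase, Ampd1, muscle AMP deaminase, and Mb, the oxygen-binding myoglobin, were at 3.46, 2.89 and 5.37 TPM in miR-183-5p tumour 3 and at most at 0.692, 0.617 and 1.45 TPM in the others. Trim63, the ubiquitin ligase MuRF1 of muscle protein breakdown, was at 0.203, 0.953 and 0.905 TPM with ctrl-EVs, 0.131, 0.807 and 0.581 TPM with miR-142-5p-EVs, 0.388, 0.751 and 0.292 TPM with miR-222-3p-EVs and 0.690, 0.371 and 3.53 TPM with miR-183-5p-EVs. Over coding transcripts alone, Trim63 was listed at 0 in all tumours but miR-183-5p tumour 3 (3.53 TPM). A retained-intron transcript of Trim63 was at 0.131 to 0.900 TPM in the other tumours and was listed at 0 in miR-183-5p tumour 3.

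For the members with a high peak, the miR-183-5p-EV group mean rested on tumour 3, whereas that of Tnnc1 was 13.8 ± 2.71 TPM (SD, n = 3) with it and 13.1 ± 3.41 TPM (SD, n = 2) without it, and that of Eno3 was 88.9 ± 15.7 TPM (SD, n = 3) and 80.0 ± 5.21 TPM (SD, n = 2). Acta1 averaged 26.6 ± 46.1 TPM (SD, n = 3) with it, whereas both other tumours of the group were listed at 0, and ctrl-EV tumours averaged 0.335 ± 0.535 TPM (SD, n = 3). Ckm averaged 18.7 ± 31.9 TPM (SD, n = 3) with it and 0.323 ± 0.209 TPM (SD, n = 2) without it, against 0.459 ± 0.172 TPM (SD, n = 3) in ctrl-EV tumours. Des averaged 14.0 ± 21.1 TPM (SD, n = 3) with it and 1.78 ± 0.177 TPM (SD, n = 2) without it, against 1.18 ± 0.0898 TPM (SD, n = 3).

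To ask whether the miRNA cargo of the EVs changed these genes apart from the tumour that chose them, each group was compared with ctrl-EVs over the other 11 tumours, by DESeq2's Wald test with Benjamini-Hochberg adjustment over all genes. No member passed an adjusted p of 0.05 in any of the 3 comparisons. The 20 members that passed the count filter of at least 10 reads in at least 3 of the 11 libraries were Myh1, Mylpf, Mybpc2, Tnnt1, Tnnt3, Tnni1, Tnni2, Tnnc1, Neb, Ttn, Actn2, Myoz1, Ldb3, Des, Ryr1, Casq1, Atp2a1, Ckm, Eno3 and Trim63, and the filter removed the other 16, Myh4, Acta1 and Tnnc2 among them. Without the filter 34 members entered the fit, all but Myot and Xirp2, and 0 were called. For Trim63 the reads tested came from transcripts without a coding annotation, so that its test does not cover the coding transcript. Coding transcripts of Actn2 held 0 to 0.176 TPM in the 11 tumours, of a gene sum of 1.10 to 5.13 TPM. Those of Ryr1 held 0.0246 to 0.138 TPM, of 0.658 to 1.31 TPM. The tests of Actn2 and Ryr1 therefore say little about their coding transcripts. In further tested members, such as Neb and Casq1, coding transcripts held only part of the gene sum.

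With miR-142-5p-EVs, 0 of the 20 tested members passed, beside 0.013% of the 15383 genes tested, and 1 member had an unadjusted p under 0.05, as did 504 of all genes. It was Des, at a log2 fold change of 1.15 (SE 0.41, DESeq2 adjusted p = 0.929). By gene-level TPM, Des was higher than in every ctrl-EV tumour in 3 of 3 miR-142-5p-EV tumours. Over coding transcripts alone this did not hold, since miR-142-5p tumour 2 was at 1.147 TPM, below ctrl tumours 1 (1.272 TPM) and 3 (1.190 TPM). Without miR-142-5p tumour 3 the log2 fold change of Des was 0.69. With edgeR's quasi-likelihood test 1 member again had an unadjusted p under 0.05 and 0 passed. The members' log2 fold changes ran from -0.60 for Casq1 to 1.20 for Mylpf, 11 above and 9 below 0, with a median of 0.0046 beside -0.0051 over all genes.

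With miR-222-3p-EVs, 0 of 20 members passed, beside 0.106% of the 15084 genes tested, and none had an unadjusted p under 0.05 by DESeq2 or by edgeR, while 331 of all genes did by DESeq2. Their log2 fold changes ran from -0.83 for Ldb3 (SE 0.78) to 1.12 for Atp2a1 (SE 1.06), with 10 on each side of 0 and a median of -0.0054 beside -0.0088 over all genes. With miR-183-5p-EVs, where 2 tumours were left, 0 of 20 members passed, beside 0% of the 15383 genes tested, and again none had an unadjusted p under 0.05 by DESeq2 or by edgeR, while 275 of all genes did by DESeq2. Their log2 fold changes ran from -0.79 for Ttn (SE 1.03) to 1.06 for Atp2a1 (SE 1.19), with 10 on each side of 0 and a median of -0.014 beside -0.016 over all genes. The SE of a member reached 1.06 to 1.19 on the log2 scale in the 3 comparisons, so that a change of a few-fold in the least abundant members was not detectable at this depth.

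**Figure D4:**
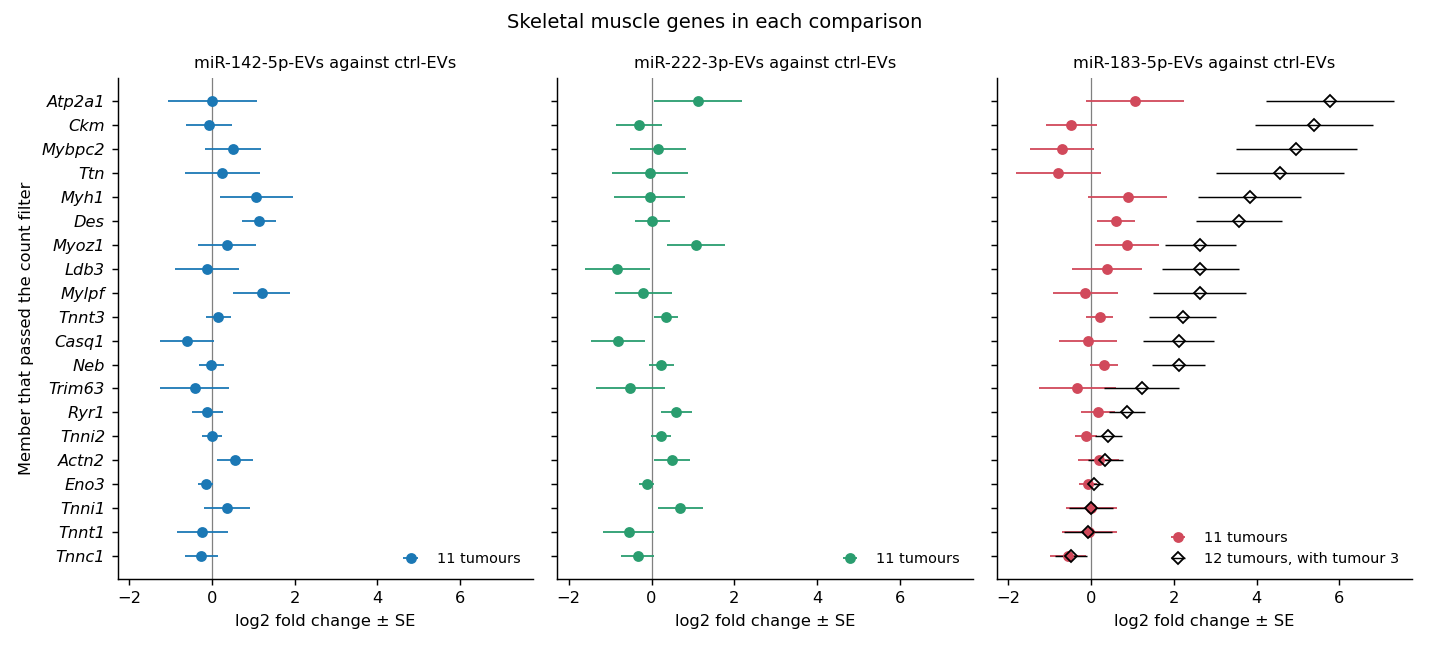
DESeq2 log2 fold changes (horizontal axis, bars ± SE) of the 20 members that passed the count filter, in each of the 3 comparisons with ctrl-EVs over 11 tumours (filled circles), and for miR-183-5p-EVs also over 12 tumours (open diamonds). The circles scatter around 0 in all panels, and the diamonds of Atp2a1, Ckm, Mybpc2 and Ttn lie above 4.

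With all 12 tumours in the fit, 22 members passed the count filter, Acta1 and Tcap being added. Against ctrl-EVs, the miR-183-5p-EV values of 20 of the 22 were then above 0 and the median log2 fold change of the members was 2.42, with Ckm at 5.39 (SE 1.43), Atp2a1 at 5.77 (SE 1.55) and Mybpc2 at 4.96 (SE 1.46), whereas Tnnc1 was at -0.48 (SE 0.38) and Tnnt1 at -0.08 (SE 0.58). DESeq2 gave no p-value for 7 of the 22, Acta1, Atp2a1, Casq1, Ckm, Mybpc2, Tcap and Ttn, because 1 library exceeded its limit on Cook’s distance, and none of the other 15 was called, beside 0% of the 15438 genes tested. Unadjusted p-values under 0.05 numbered 7 with DESeq2 and 15 with edgeR, which called 0; since the rule used this contrast, nothing is read from these counts. In the same fit 0 members were called with miR-142-5p-EVs, beside 0.00648% of genes, and with miR-222-3p-EVs, beside 0.0259% of genes.

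Among the 11 tumours alone the correlations between the tested members centred near 0. The median Pearson correlation of log2 normalised counts over the 190 pairs of the 20 tested members was -0.0017 (11 tumours, quartiles -0.27 and 0.24). It was 0.00017 over pairs of every 20th gene with a mean normalised count of at least 50, a floor the members did not have. Some members held few reads in these tumours, such as Ttn (4 to 49) and Ldb3 (4 to 17). At such counts a value near 0 cannot tell whether the members move together, and the members that the filter removed are not covered. With miR-183-5p tumour 3 it was 0.64 over 231 pairs of 22 members, a value that rests on that tumour. The genes outside the set most like the mean of the members over the 11 tumours were Unc45a (r = 0.91), Sh2d3c (0.88), Slc15a4 (0.88), Mib2, Lrg1, Trim46, Sirt6, Irgq, Brms1 and Mta1 (0.81 each), and on log2(TPM + 0.1) only 4 of these 10 were again among the 10 most alike. All points share their library and its depth, and these values are a description.

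Of the 36 members, 10 had their highest value of the 11 tumours in miR-142-5p tumour 3: Mylpf, Mybpc1, Mybpc2, Tnnt1, Ttn, Des, Cmya5, Cacna1s, Pygm and Ampd1. Over the members that passed the count filter this was 5 of 20 (25%), beside 16.8% of the 15422 genes that passed it. That tumour stood apart more widely, since 248 genes with at least 100 reads there were at least 2-fold above every other tumour, none of them a member, against 0 to 45 genes in each of the other 11.

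In miR-183-5p tumour 3 the corresponding count was 45 genes (0.394% of the 11418 with at least 100 reads there), of which 21 were members and 11 belonged to other lists of muscle genes. Among 27 other sarcomere genes, 23 had their highest TPM in that tumour, for example Pdlim3 (17.4 TPM, 0 to 0.855 TPM elsewhere), Csrp3 (9.20 TPM, 0 to 0.310 TPM), Klhl41 (9.45 TPM, 0.0915 to 0.497 TPM) and Xirp1 (2.22 TPM, 0 in all others). Tpm1 and Tpm2, tropomyosins that many cells express, were at 475 and 160 TPM, against 279 to 386 TPM and 67.6 to 143 TPM. Of 15 other genes of calcium handling and excitation, 10 were highest there, Trdn, the triadin of the release complex, at 4.18 TPM against 0 to 0.0342 TPM. In contrast Scn4a, the muscle sodium channel, was highest in miR-142-5p tumour 3 at 2.27 TPM and was at 0.317 TPM in miR-183-5p tumour 3. Of 14 other energy genes 7 were highest there, including Cox8b (3.15 TPM, 0 to 0.757 TPM) and Pgam2 (9.93 TPM, 2.36 to 4.71 TPM), and of 11 membrane and neuromuscular junction genes 5 were.

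Among 11 genes of muscle formation, Myf6 (2.05 TPM, 36 reads), Myog (1.35 TPM, 29 reads), Myod1 (0.181 TPM, 5 reads) and Myf5 (0.0638 TPM, 2 reads), the 4 myogenic transcription factors, had reads in miR-183-5p tumour 3 and in no other tumour. Since a count of 0 allows up to 3 reads, the 2 reads of Myf5 do not set miR-183-5p tumour 3 apart. Mef2c, a transcription factor that many other cells also express, was at 6.15 TPM there and 3.99 to 23.8 TPM in the others, the highest in miR-142-5p tumour 3. Pax7, the marker of satellite cells, was listed at 0 there and at no more than 0.0114 TPM elsewhere. The developmental heavy chains Myh3 and Myh8 were at 0.0206 and 0.117 TPM there, against 0 to 0.0409 and 0 to 0.0916 TPM. Of the 11 genes, 6 were highest there, Myh8 and Mymk (0.153 TPM from 3 reads, against 0 to 0.132 TPM) beside the 4 factors. Of 6 genes of muscle loss, only Mstn (0.0530 TPM, from 2 reads) was highest there, and Fbxo32, the atrophy ligase atrogin-1, was at 4.55 TPM against 3.40 to 7.92 TPM.

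Markers of other cells in miR-183-5p tumour 3 were as follows. The 8 cardiac genes summed to 570 TPM against 350 to 703 TPM, with 1 highest there, Actc1 at 0.569 TPM. Tnnt2, cardiac troponin T, held most of that sum, at 555 TPM against 324 to 695 TPM. Myl4 and Nppb were at 6.96 and 4.22 TPM, within the ranges of the others. Myh6 and Myl7 were listed at 0 there and at no more than 0.162 and 0.129 TPM elsewhere. The 10 smooth muscle and pericyte genes summed to 444 TPM, above the 159 to 418 TPM of the others. Of these, 5 were highest there and none was 2-fold above the next tumour, Acta2 at 126 TPM against 18.6 to 120 TPM. The pericyte marker Rgs5 was lowest there, at 9.30 TPM against 10.2 to 26.6 TPM. Pdgfrb (17.8 TPM against 8.58 to 22.8 TPM) and Notch3 (1.48 TPM against 0.810 to 2.63 TPM) lay within the ranges of the others. The 9 adipocyte genes summed to 104 TPM against 54.7 to 98.2 TPM, with 5 highest there. That sum includes Car3, which muscle also expresses, at 16.1 TPM against 0.374 to 2.79 TPM. Adipoq was at 2.77 TPM against 0.439 to 2.71 TPM. Fabp4, the most abundant of the list, was at 54.1 TPM against 47.7 to 79.7 TPM. Plin1 was at 0.572 TPM against 0.176 to 1.06 TPM, and Ucp1 was listed at 0. The 5 erythroid genes summed to 761 TPM against 151 to 680 TPM, with 4 highest there and none 2-fold above the next tumour. The 6 fibroblast genes summed to 1109 TPM against 287 to 1376 TPM, with none highest there. The 5 macrophage genes summed to 230 TPM, below the 244 to 443 TPM of the others. The 8 keratinocyte genes summed to 24.5 TPM against 12.9 to 42.8 TPM. Krt5 was listed at 0 there against 0.0521 to 0.451 TPM. Lor, Flg2 and Dsg1a were also listed at 0 there, but at no more than 0.130 TPM elsewhere, and Krt1 was at 0 in all 12 tumours. The Schwann cell, endothelial and tumour epithelial lists, at 120, 72.9 and 1691 TPM, lay within the ranges of the others, with no gene highest there. The part of these cells in the members' levels was not tested.

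**Figure D5:**
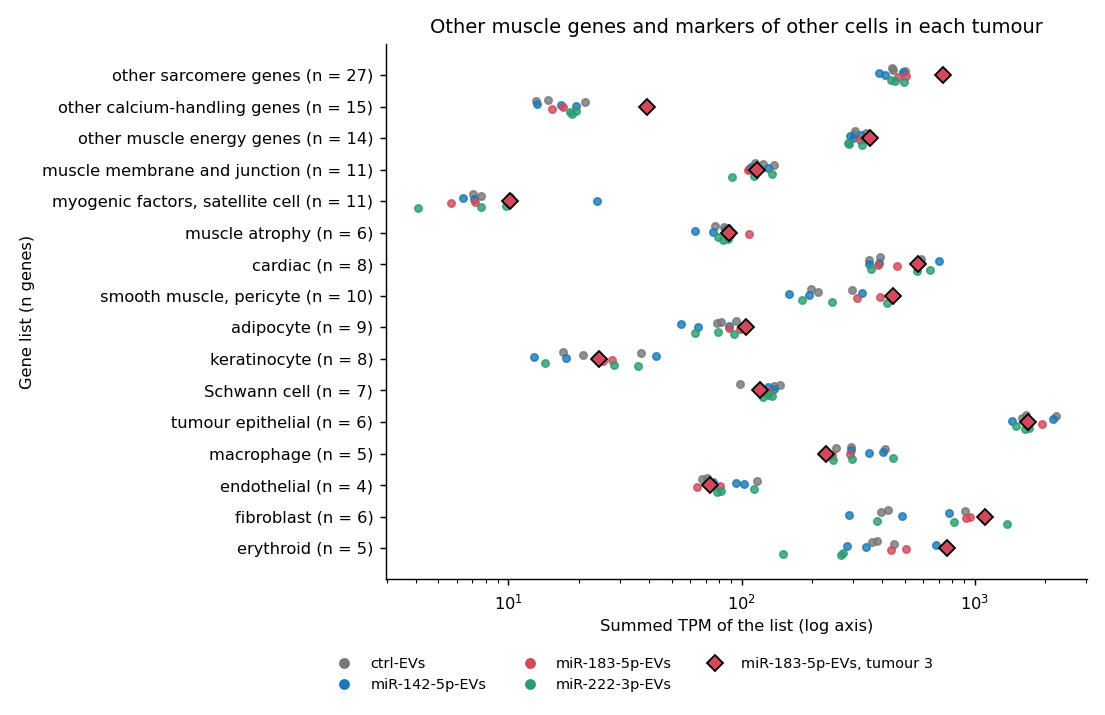
Summed TPM (log axis) of 16 lists of other muscle genes and of markers of other cells, with circles for 11 tumours coloured by group and a diamond for miR-183-5p tumour 3. The diamond is the highest point for, among others, the other sarcomere genes (730 TPM) and the other calcium-handling genes (39.4 TPM) and the lowest for the macrophage genes (230 TPM).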

How the data were processed

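RNA-seq was made from 12 4T1 tumours (polyA RNA, stranded kit, paired-end reads). The authors quantified transcripts with Salmon; the deposited tables hold estimated counts, TPM and effective lengths per transcript. Per the labels the build was GRCm38; the annotation release named in the study's methods differs from the one in the deposited tables' names. Transcripts were mapped to GENCODE M21 genes (98.3% matched; 0.633 to 0.671% of estimated reads did not), and estimated counts and TPM were summed per gene. Estimated counts were rounded and fitted with DESeq2 1.42.0 (group term, transcript length as an offset), keeping genes that reached 10 reads in 3 or more libraries; edgeR 4.0.16 was an alternative. Both were tested on simulated data. The members and lists were chosen with earlier results of these data known, and miR-183-5p tumour 3 was therefore left out of the tests. Within each role, the 2 members of highest mean TPM, Ttn, Myh1, Myh2, Myh4 and the slow troponins are given in every tumour, and other genes named were singled out after their values were seen. The 10 genes most like the members were taken among genes with a mean normalised count of at least 50. Tumours of one group differed by more than sampling noise (chi-square per degree of freedom 14.0 to 60.2), so each counted once. Alternatives covered libraries, test, scaling, filters, length offset, replicate numbers and single tumours left out.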

Additional observations from a re-analysis of the deposited data

How the results depend on the processing

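With DESeq2 or edgeR, no member was called in any of the 3 comparisons under any alternative run; the lowest adjusted p of a member was 0.0906 with miR-142-5p-EVs (Des, without miR-142-5p tumour 2), 0.746 with miR-183-5p-EVs and 0.999 with miR-222-3p-EVs. Counts over all genes moved more. With miR-142-5p-EVs 2 genes were called, 1 with all 12 libraries, with at least 50 counts in every library or with only the 2 groups compared, and 0 with edgeR (11 or 12 libraries), without the count filter or without the length offset; leaving out 1 tumour at a time gave 0 to 69, with 69 without miR-142-5p tumour 1, 18 without miR-142-5p tumour 2, 0 without ctrl tumour 1 and 1 without any other. With miR-222-3p-EVs 16 genes were called, 4 with all 12 libraries, 2 with edgeR, 0 with edgeR and all 12 libraries and 7 with at least 50 counts, and leaving out 1 tumour gave 7 to 18, with 7 without ctrl tumour 2 and 10 without miR-222-3p tumour 3. With miR-183-5p-EVs 0 genes were called, 15 with only the 2 groups compared, and leaving out 1 tumour gave 0 to 2, with 1 without miR-183-5p tumour 1 and 2 without miR-183-5p tumour 2. With the replicate number as a block (replicate block) the counts were 3, 19 and 4 genes and 0 members. On average same-numbered tumours did not deviate together (mean r -0.086 over 15 pairs, 0.043 over 30 pairs with different numbers). Single same-numbered pairs ran from -0.58 to 0.37, so that these values show no pairing but cannot exclude it. The log2 fold change of Ttn with miR-183-5p-EVs turned from -0.79 to 4.57 in DESeq2 with miR-183-5p tumour 3 in the fit, and was 4.55 in edgeR with all 12 libraries (-0.78 in edgeR without that tumour). The members highest in that tumour numbered 33 on normalised counts, on depth-scaled reads and over coding transcripts, where Actn2 joined; the median ratio was 27, 26.6 and 31.7. Of the 10 genes most like the members, 4 recurred on log2(TPM + 0.1) and 0 with all 12 tumours. The fits of edgeR with 12 libraries and the sum over coding transcripts were chosen after seeing the data. The causes of these changes were not tested.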

Other observations

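Of the 45 genes at least 2-fold above every other tumour in miR-183-5p tumour 3, 12 were on none of the lists. Several are known from muscle: Eef1a2, the elongation factor of muscle and neurons, was at 5.20 TPM and listed at 0 in the others, Mybph at 5.47 TPM against 0 to 0.204 TPM, Mylk2, the skeletal myosin light chain kinase, at 2.68 TPM against 0 to 0.280 TPM, and Mustn1 at 26.9 TPM against 0.781 to 2.82 TPM. Cryab, a small heat-shock protein abundant in muscle, was at 140 TPM against 27.9 to 59.8 TPM. Others are not muscle genes: Mmp10, a matrix metalloproteinase, was at 118 TPM against 6.34 to 45.8 TPM, the cytokine Il11 at 10.1 TPM against 1.78 to 4.99 TPM, and Il1rl1, the receptor of interleukin-33, at 4.18 TPM against 0.645 to 2.02 TPM. These genes were singled out after their values were seen, and no test was made of them.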
